A study of Mus musculus with 11 samples.

Results

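The mitochondrial genome of the mouse encodes 37 genes, and all of them were followed here in the cerebral cortex of Abi3_KO and Abi3_WT mice on a 5xFAD background. They were taken as every gene the annotation places on the mitochondrial chromosome, and they made up 37 of the 53700 genes listed in the count tables. They comprised 13 mRNA genes, 2 rRNA genes and 22 tRNA genes. The rule uses no measured value.

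Mitochondrial DNA is a small circle that is passed on by the mother and present in many copies per cell. Its mRNAs encode subunits of the respiratory chain complexes I, III and IV and of the ATP synthase, its rRNAs build the mitochondrial ribosome, and its tRNAs read the codons of those mRNAs. Both strands are copied into long transcripts, which are cut at the tRNAs to release the mRNAs and rRNAs between them, and most of the mRNAs then receive a poly(A) tail. Over evolutionary time pieces of mitochondrial DNA have also been copied into nuclear chromosomes, where they remain as sequences that resemble mitochondrial genes.

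RNA was measured in 11 female mice of 8 months with the C57BL/6 strain label, 6 in the group Abi3_WT (Abi3 wildtype) and 5 in the group Abi3_KO (Abi3 knockout). Per the study's methods, the 5XFAD parents were of the B6SJL strain and the Abi3 knockout parents of the C57BL/6N strain. Every animal of both groups carried the 5xFAD transgenes, which carry mutations of familial Alzheimer's disease and are driven by the neuronal Thy1 promoter, and no animal without these transgenes was measured. The Abi3_KO animals came from a line in which the Abi3 gene was deleted throughout the body, and the mother of each animal is not given in the sources used here. Libraries were made by QuantSeq 3' mRNA-seq, in which reverse transcription starts from an oligo(dT) primer and each RNA gives 1 read near its 3' end, and the comparison asks whether loss of Abi3, a gene of microglia, changes mitochondrial RNA in this model. All values are from bulk tissue, in which fewer cells of a type and less RNA per cell cannot be told apart.

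The libraries held between 3202310 and 5501958 reads in genes. Abi3 itself had 33, 38, 20, 16, 10 and 11 reads in the 6 Abi3_WT libraries and 0, 2, 0, 0 and 0 in the 5 Abi3_KO libraries, as labelled. Markers of cortical cells were present in every group, with summed levels of the 6 neuronal markers of 3821 to 4722 CPM (reads scaled to the total of gene reads) in Abi3_WT and 4244 to 4853 CPM in Abi3_KO, and no marker gene of neurons, astrocytes, microglia, oligodendrocytes, endothelium, choroid plexus or blood passed the test. Reads that aligned outside annotated genes numbered 65.9 ± 3.67 (SD, n = 6) per 100 gene reads in Abi3_WT, against 54.0 ± 4.99 (SD, n = 5) in Abi3_KO, a property of the libraries that moved with genotype.

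Some sequences are needed to read the counts, because the authors counted only reads that aligned to 1 place. The longest nuclear copy of mitochondrial DNA in the GRCm39 reference lies on the minus strand of chromosome 1 (chr1:24650616-24655269) and matches mitochondrial bases 6390 to 11042 at 99.936% identity over 4654 aligned bases. It differs from the mitochondrial reference at 3 places, which are A6393T in mt-Co1, T9461C at the start of mt-Nd3 and 1 extra A in mt-Tr, with positions counted on the mitochondrial chromosome and the mitochondrial base written first. The pairs in mt-Nd3 and mt-Tr are shown because they decide whether a read is assigned to the mitochondrial gene or to its copy. Capitals mark the base that differs in the first pair and the run of A that differs in the second pair, 8 in the mitochondrial sequence and 9 in the copy.
mt-Nd3 start (chrM:9441-9481, plus strand): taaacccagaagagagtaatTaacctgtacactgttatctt
chromosome 1 copy (chr1:24652178-24652218, minus strand): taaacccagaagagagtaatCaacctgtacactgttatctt
mt-Tr (chrM:9808-9851, plus strand): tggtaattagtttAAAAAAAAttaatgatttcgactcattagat
chromosome 1 copy (chr1:24651807-24651851, minus strand): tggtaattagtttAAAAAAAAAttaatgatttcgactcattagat

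The ends of the mRNAs matter for an assay primed on poly(A). In the reference, 10 of the 13 mitochondrial coding sequences end in a full stop codon and 3 end in its first base, T, and are completed to a stop codon by the poly(A) tail. The last 30 bases of 2 of these and of mt-Nd1, which has a full stop codon, are shown 5' to 3' with the stop codon or its first base in capitals.
mt-Nd4 (gene at chrM:10167-11544, plus strand): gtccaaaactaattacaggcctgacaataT
mt-Cytb (gene at chrM:14145-15288, plus strand): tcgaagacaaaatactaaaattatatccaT
mt-Nd1 (gene at chrM:2751-3707, plus strand): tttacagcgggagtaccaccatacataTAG

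Of the 37 genes, those that match a nuclear copy throughout had almost no reads counted. BLASTN found 44 nuclear stretches similar to mitochondrial DNA, of which 9 shared at least 1 window of 76 bases, the read length, with the mitochondrial chromosome base for base. Of all 76-base windows of the mitochondrial chromosome, 31.9% also occurred in a nuclear chromosome. All 9 genes whose windows were entirely of this kind had fewer than 10 reads over the 11 libraries together, and they were mt-Co2 and mt-Co3 (cytochrome c oxidase, complex IV), mt-Atp6 and mt-Atp8 (ATP synthase), mt-Nd4l (complex I) and the tRNA genes mt-Ty, mt-Ts1, mt-Td and mt-Tk. Of these, mt-Co3 had 2 reads, mt-Atp6 and mt-Ty had 1 read each, and the other 6 had 0. The tRNA genes mt-Tn, mt-Tg and mt-Th, with 78.9%, 48.5% and 80.6% of windows also nuclear, had 0 reads as well. For the 9 genes that match throughout, reads of the reference sequence fitted both places and were not counted, so a count near 0 gives no level of their RNA.

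The 14 genes with no such window had between 791 and 2081663 reads. Between these ends were mt-Co1, with 40.9% of its windows and 100% of those in its last 200 bases also nuclear and yet 109700 reads, and mt-Nd4, with 60.9% of its windows but 0% of those in its last 200 bases also nuclear and 494479 reads. The nuclear annotation of the copies held few reads in return. Over all 11 libraries the chromosome 1 pseudogenes other than Gm28438 had between 1 and 15 reads each, and on chromosome 2 Gm13340, a copy of mt-Co1, had 585 reads and Gm13341, a copy of mt-Co2, had 276. In all, 25 of the 37 genes had at least 10 reads and were tested, 8 mRNA genes, both rRNA genes and 15 tRNA genes.

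**Figure D1:**
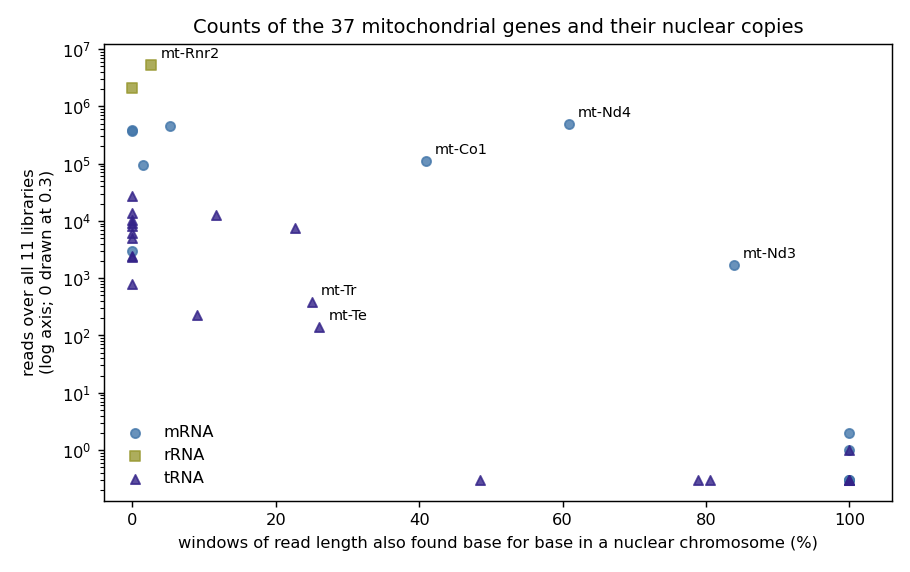
Reads over all 11 libraries (vertical log axis, 0 drawn at 0.3) against the percent of 76-base windows of a gene that also occur in a nuclear chromosome, 1 point per mitochondrial gene. The 9 genes at 100% have at most 2 reads, while mt-Nd4 at 60.9% has 494479.

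Mitochondrial genes supplied 22.1% ± 1.42 (SD, n = 6) of gene reads in Abi3_WT, and 22.1% ± 2.12 (SD, n = 5) of those in Abi3_KO. Single animals gave 22.4, 22.6, 24.3, 20.7, 22.4 and 20.4% in Abi3_WT and 19.3, 23.5, 23.6, 23.7 and 20.2% in Abi3_KO. The lowest library was Abi3_KO replicate 1, the highest was Abi3_WT replicate 3, and the difference of the means, -0.0724 percentage points, was smaller than the SD within either group. With all reads aligned to 1 place as the denominator, in or outside genes, the shares were 13.3% ± 1.13 (SD, n = 6) and 14.3% ± 1.29 (SD, n = 5), so the sign of the difference depended on the denominator. As a sum over the chosen genes, the share was given no test.

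The rRNA genes took most of these reads, 17.4% ± 1.28 of gene reads in Abi3_WT (n = 6) and 17.2% ± 1.63 in Abi3_KO (n = 5). The mRNA genes took 4.46% ± 0.203 (SD, n = 6) and 4.55% ± 0.666 (SD, n = 5), with 4.76, 4.41, 4.54, 4.18, 4.55 and 4.33% in the Abi3_WT animals and 3.68, 4.25, 5.21, 5.23 and 4.39% in the Abi3_KO animals. The Abi3_KO libraries thus contained both the 2 highest mRNA shares and the lowest. The tRNA genes took 0.232% ± 0.0441 (SD, n = 6) and 0.272% ± 0.0512 (SD, n = 5), and the 5 Abi3_KO libraries all lay above the Abi3_WT mean, with Abi3_KO replicate 2 highest at 0.363% and overlap with Abi3_WT replicates 1, 2 and 3.

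**Figure D2:**
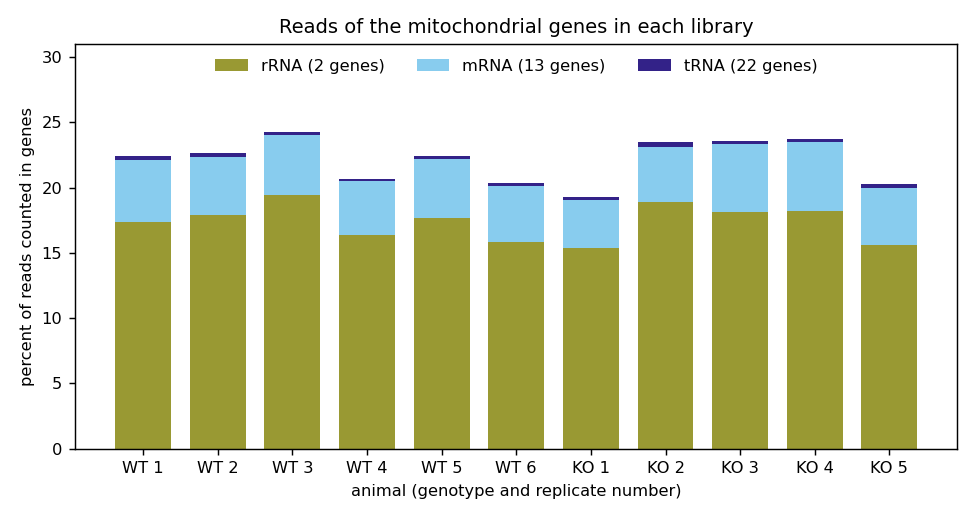
Percent of gene reads (vertical axis) from mitochondrial rRNA, mRNA and tRNA genes, stacked, with 1 bar per animal. Totals run from 19.3% to 24.3%, and the bars of both genotypes span nearly the same range.

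Of the 25 tested mitochondrial genes, 1 passed an adjusted p of 0.05 (DESeq2, Wald test, Benjamini-Hochberg) between Abi3_KO and Abi3_WT, mt-Tt, and it was higher in Abi3_KO. The adjustment covered only the genes kept by DESeq2's independent filtering on mean count. Among all 17626 genes tested, 0.539% passed, and 0.34% passed with a higher level in Abi3_KO. Only genes with an adjusted p could pass. These were 6487 of the 17626, of which 95 passed, and 21 of the 25 mitochondrial genes. In none of the 25 genes were the groups free of overlap, against 1.04% of all genes tested. Log2 fold changes were above 0 in 23 genes and below 0 in 2, mt-Rnr1 and mt-Tr, with a median of 0.17 beside -0.0033 over all genes tested, and 3 of the 25 (mt-Tt, mt-Tl1 and mt-Tw) had an unadjusted p under 0.05, as did 8.58% of all genes tested. Log2 fold changes are Abi3_KO against Abi3_WT throughout, and normalized counts are reads divided by the size factor of the library.

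**Figure D3:**
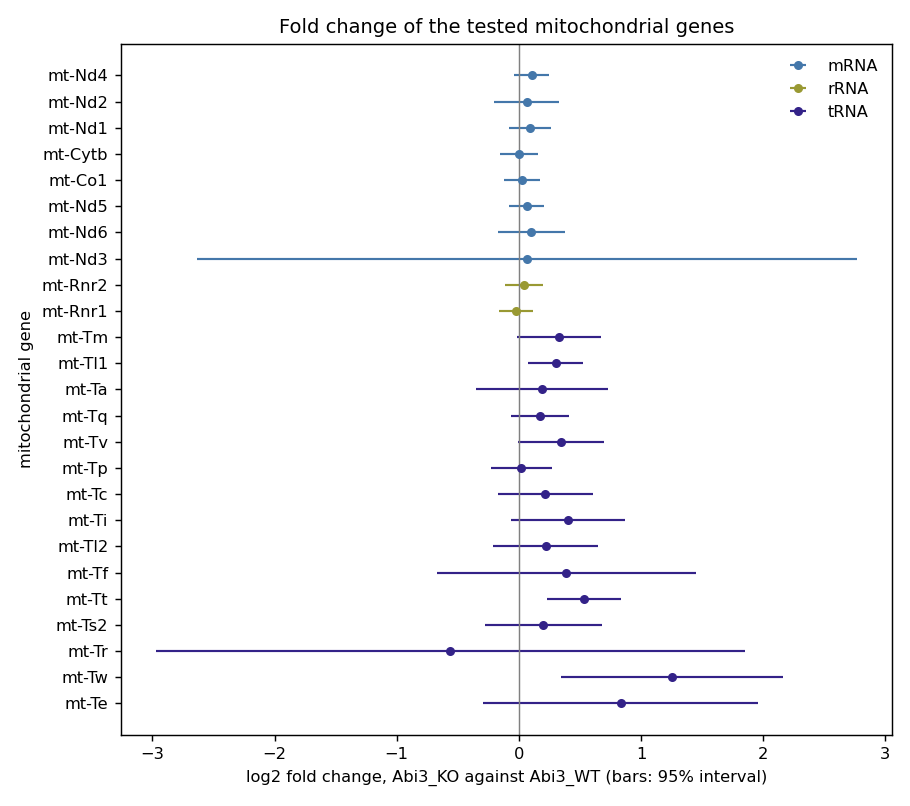
Log2 fold change, Abi3_KO against Abi3_WT (horizontal axis), of the 25 tested mitochondrial genes, with points for estimates and bars for 95% intervals. The rRNA and mRNA genes sit between -0.02 and 0.10, 14 of the 15 tRNA genes sit to the right of 0, and the widest intervals are those of mt-Nd3 and mt-Tr.

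None of the 8 tested mRNA genes passed the test, and their log2 fold changes ran from 0.00074 to 0.10 with a median of 0.07. Of the complex I subunits, mt-Nd4 (proton-pumping membrane subunit) had the most reads of the mRNA genes. Its normalized counts were 45878, 41884, 43903, 38569, 43480.1 and 40503 in Abi3_WT and 37369, 45335, 52583, 49279.5 and 43155 in Abi3_KO. The highest and the lowest animal were both Abi3_KO, and the log2 fold change was 0.10 (SE 0.0732, 95% interval -0.04 to 0.25), adjusted p = 0.599 by DESeq2. mt-Nd2, another membrane subunit at chrM:3914-4951, had 42532, 36906, 39544, 35226, 43173 and 35435 in Abi3_WT and 30647, 35245, 48468, 51001 and 37506 in Abi3_KO. Abi3_KO replicates 3 and 4 were above every Abi3_WT animal while Abi3_KO replicate 1 was below every one, for a log2 fold change of 0.06 (SE 0.135, 95% interval -0.20 to 0.33).

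mt-Nd1, the subunit that borders the ubiquinone site, showed a like spread. Its normalized counts were 37467, 32049.7, 32288, 31165, 34380.4 and 31742 in Abi3_WT and 28045, 34519, 43939, 39065 and 31458 in Abi3_KO, with a log2 fold change of 0.09 (SE 0.0876, 95% interval -0.08 to 0.27). Again Abi3_KO replicate 3 was highest and Abi3_KO replicate 1 lowest. For mt-Nd5, at the far end of the membrane arm, counts were 8079, 8403, 8396, 7486, 8689 and 7478 in Abi3_WT and 6888, 8380.2, 9364, 9454 and 8212 in Abi3_KO, a log2 fold change of 0.06 (SE 0.0736, 95% interval -0.08 to 0.21). mt-Nd6 (chrM:13552-14070) is the only mRNA gene on the minus strand and had the fewest reads of the 3 mRNA genes that share no 76-base window with a nuclear chromosome. Its counts were 298, 255, 252, 243, 248 and 222 in Abi3_WT and 169.9, 332, 297, 273 and 284 in Abi3_KO, a log2 fold change of 0.10 (SE 0.141, 95% interval -0.17 to 0.38), and the groups overlapped over the whole Abi3_WT range.

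mt-Cytb, the cytochrome b of complex III, had the smallest difference of all tested members. Normalized counts were 34960.1, 32349, 34403, 29668, 33395 and 32694 in Abi3_WT and 26189, 34156, 36786, 37454 and 30057 in Abi3_KO. The means were 32912 ± 1873 (SD, n = 6) for Abi3_WT against 32928 ± 4758 (SD, n = 5) for Abi3_KO, the log2 fold change was 0.00074 with a 95% interval of -0.15 to 0.15, and adjusted p = 0.999 by DESeq2. mt-Co1 (chrM:5328-6872), the catalytic subunit of cytochrome c oxidase, was the only complex IV gene that could be tested, and reads could be counted only where no nuclear copy matches it in full. Its normalized counts were 10303, 10110.5, 10362, 8374, 9609 and 8739 in Abi3_WT and 8139, 10522, 9904, 10920.0 and 9283 in Abi3_KO, with a log2 fold change of 0.03 (SE 0.0758, 95% interval -0.12 to 0.17) and complete overlap. No ATP synthase gene of the mitochondrial chromosome could be tested.

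Per length, mean levels over the 11 libraries were 10177 CPM per kb of gene for mt-Nd2, 9524 for mt-Nd1, 8478 for mt-Nd4 and 7676 for mt-Cytb. mt-Co1 followed at 1668, mt-Nd5 at 1208 and mt-Nd6 at 134 CPM per kb. A 3' assay gives 1 read per RNA whatever its length, so division by length lowers long genes such as mt-Nd5. The levels of mt-Co1, mt-Nd4, mt-Nd2 and mt-Nd5 exclude reads that also fitted a nuclear copy. In the last 200 bases, 27% of windows were also nuclear for mt-Nd2 and 0% for mt-Nd5. Among mitochondrial mRNA reads the make-up was nearly the same in both genotypes. mt-Nd4 made up 25.6% ± 0.292 (SD, n = 6) of these reads for Abi3_WT, against 26.4% ± 0.907 (SD, n = 5) for Abi3_KO. mt-Cytb made up 19.9% ± 0.581 (SD, n = 6) of these reads for Abi3_WT, against 19.1% ± 0.726 (SD, n = 5) for Abi3_KO, and every other mRNA also overlapped between the groups.

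**Figure D4:**
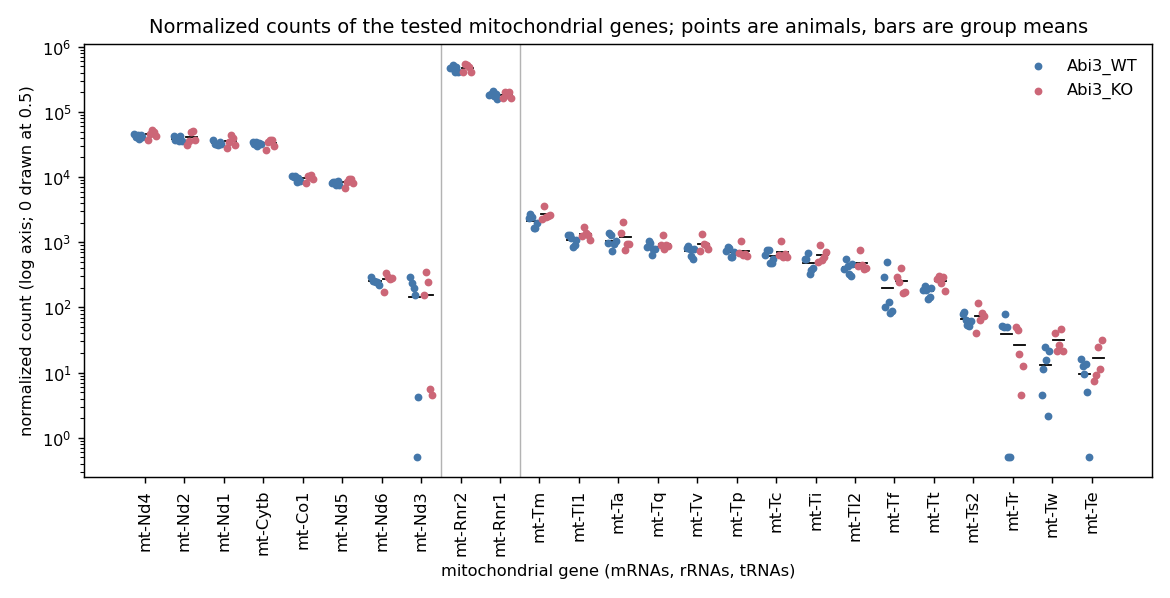
Normalized counts (vertical log axis) of the 25 tested mitochondrial genes in each animal, Abi3_WT in blue and Abi3_KO in red, with group means as black bars. The groups overlap in all 25 genes, and mt-Nd3 and mt-Tr split into high and low animals within both genotypes.

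Neither rRNA gene passed the test. mt-Rnr2, the RNA of the large ribosomal subunit (chrM:1094-2675), had normalized counts of 475014, 473514, 515900.0, 415880.0, 480797 and 411778 in Abi3_WT and 411760.0, 549503, 520659, 488617 and 404222 in Abi3_KO. Its log2 fold change was 0.04 (SE 0.0800, 95% interval -0.12 to 0.20), adjusted p = 0.901 by DESeq2. mt-Rnr1, the RNA of the small subunit (chrM:70-1024), had 181526, 186658, 209154, 174543, 190158 and 160490.0 in Abi3_WT and 162223, 200252, 179074, 199984 and 164486 in Abi3_KO, a log2 fold change of -0.02 (SE 0.0713, 95% interval -0.16 to 0.12). Both genes overlapped fully, and reads of mt-Rnr2 per read of mt-Rnr1 averaged 2.52 in Abi3_WT (SD 0.0818, n = 6) and 2.62 in Abi3_KO (SD 0.201, n = 5).

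At 78820 CPM per kb for mt-Rnr2 and 51002 for mt-Rnr1, the rRNAs stood above every mRNA on the per-length scale. Both contain A-rich stretches, on which an oligo(dT) primer can also start. The richest 20 bases of each, in capitals, are shown with their surroundings because they are the internal stretches most like a poly(A) tail. They hold 16 A in mt-Rnr2 and 15 A in mt-Rnr1, and where the reads began within the genes was not tested, since the files give only a total per gene.
mt-Rnr2 (chrM:1468-1527, plus strand): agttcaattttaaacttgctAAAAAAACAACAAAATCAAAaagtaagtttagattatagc
mt-Rnr1 (chrM:705-764, plus strand): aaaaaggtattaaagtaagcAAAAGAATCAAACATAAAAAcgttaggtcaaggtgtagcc

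The 15 tested tRNA genes had a median log2 fold change of 0.30, with 14 above 0 and mt-Tr below. Only mt-Tt, the gene of the threonine tRNA (chrM:15289-15355, ENSMUSG00000064371), passed. It lies between mt-Cytb and mt-Tp, holds no 76-base window that is also nuclear, and its sequence is shown in full because it is the member that the comparison turned on.
mt-Tt (chrM:15289-15355, plus strand): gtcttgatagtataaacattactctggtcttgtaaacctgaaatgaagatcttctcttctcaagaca

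Normalized counts of mt-Tt were 186, 214, 183, 134, 143 and 199 in Abi3_WT and 268, 303, 238, 288 and 176 in Abi3_KO. Of the Abi3_KO animals, 4 were above every Abi3_WT animal and the fifth, replicate 5, lay within their range. The means were 176 ± 31.7 (SD, n = 6) for Abi3_WT against 255 ± 50.1 (SD, n = 5) for Abi3_KO, the log2 fold change was 0.53 (SE 0.155, 95% interval 0.23 to 0.84) and adjusted p = 0.0477 by DESeq2. This call was close to the threshold and rested on single animals and on the tool. Refitting without each of the 11 animals in turn made it 2 times (without Abi3_WT replicate 1 and without Abi3_KO replicate 5), with adjusted p from 0.00542 to 0.214 over the 10 that gave one, so that leaving out any of the other 9 animals ended it. It was also made in 4 of 12 fits with other settings, but not with edgeR or limma. mt-Cytb, directly upstream on the same strand, had a log2 fold change of 0.00074, and mt-Tp, directly downstream on the other strand, one of 0.02.

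mt-Tl1, a leucine tRNA gene between mt-Rnr2 and mt-Nd1, had 1302, 1272, 1154, 850.2, 894 and 1080.2 in Abi3_WT and 1256, 1704, 1392, 1272 and 1102 in Abi3_KO. Abi3_KO replicates 2 and 3 were above every Abi3_WT animal, and with a log2 fold change of 0.30 (SE 0.115, 95% interval 0.08 to 0.53) the gene had an adjusted p of 0.196 by DESeq2. mt-Tw, the tryptophan tRNA gene at chrM:4950-5016, was counted rarely, with normalized counts of 4.57, 11.4, 25.1, 15.3, 2.17 and 21.2 in Abi3_WT and 39.9, 21.2, 26.3, 47.4 and 21.6 in Abi3_KO. Its log2 fold change of 1.25 (SE 0.463, 95% interval 0.34 to 2.16) had an unadjusted p of 0.00698 in the DESeq2 fit and no adjusted p, because its mean was under the limit of 70.4 below which DESeq2's independent filtering gave none.

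mt-Tm, the methionine tRNA gene, was the tRNA gene with the most reads. Its normalized counts were 2378, 2716, 2471, 1649, 1674 and 1993 in Abi3_WT and 2242, 3619, 2465, 2564 and 2592 in Abi3_KO, where replicate 2 stood apart at the top. The log2 fold change was 0.33 (SE 0.177, 95% interval -0.02 to 0.68), adjusted p = 0.456 by DESeq2. mt-Tv, the valine tRNA gene between the rRNAs, had 825, 879.9, 778, 622, 557 and 788 in Abi3_WT and 747, 1327, 944, 900.1 and 786 in Abi3_KO, a log2 fold change of 0.34 (SE 0.179, 95% interval -0.01 to 0.70). mt-Ti, for isoleucine, had 556, 546, 695, 326, 377 and 407 in Abi3_WT and 491, 897, 529, 586 and 699 in Abi3_KO, a log2 fold change of 0.40 (SE 0.237, 95% interval -0.06 to 0.87). In both genes the Abi3_KO range began inside the Abi3_WT range and ended above it.

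mt-Tf, the phenylalanine tRNA gene at the start of the plus-strand transcript, varied widely within Abi3_WT. It had 291, 100.4, 505, 120.1, 83.3 and 86.8 in Abi3_WT and 297, 248, 409, 164 and 174 in Abi3_KO, a log2 fold change of 0.39 (SE 0.541, 95% interval -0.67 to 1.45). Its highest value was in an Abi3_WT animal, replicate 3. mt-Tl2 (leucine) had 387, 558, 436, 329, 309 and 469 in Abi3_WT and 425, 750.5, 440.5, 392 and 409 in Abi3_KO, and mt-Ts2 (serine) had 79.9, 83.6, 63.8, 52.8, 51.4 and 61.4 in Abi3_WT and 39.9, 116, 64.5, 82.4 and 72.8 in Abi3_KO. Their log2 fold changes were 0.22 (SE 0.219) and 0.20 (SE 0.243), with overlapping groups.

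On the minus strand 5 tRNA genes were tested, with a median log2 fold change of 0.19 beside 0.34 for the 10 on the plus strand, and none passed. mt-Tq (glutamine) had 858, 1047, 958, 628, 786 and 798 in Abi3_WT and 913, 1272, 799, 908 and 873 in Abi3_KO, a log2 fold change of 0.17 (SE 0.122). mt-Ta (alanine) had 976, 1366, 1285, 737, 941 and 1059 in Abi3_WT and 1371, 2041, 747, 937 and 945 in Abi3_KO, a log2 fold change of 0.19 (SE 0.275). Within each genotype both genes varied more than their means differed. mt-Tc (cysteine) had 630.1, 750.1, 771, 473, 477 and 554 in Abi3_WT and 645, 1036, 599, 655 and 596 in Abi3_KO, a log2 fold change of 0.21 (SE 0.198). mt-Te (glutamate) was near the limit of detection, with 16.0, 12.7, 9.41, 13.6, 5.07 and 0 in Abi3_WT and 7.34, 9.09, 25.1, 11.3 and 31.9 in Abi3_KO, a log2 fold change of 0.83 (SE 0.576).

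mt-Tp, the proline tRNA gene at chrM:15356-15422, had 728, 851, 813, 586, 598 and 705 in Abi3_WT and 685, 1029, 629, 663 and 611 in Abi3_KO. Its log2 fold change was 0.02 (SE 0.128, 95% interval -0.23 to 0.27), and only Abi3_KO replicate 2 lay above the Abi3_WT range. As a share of mitochondrial tRNA reads, mt-Tp made up 8.35% ± 0.426 (SD, n = 6) of these reads for Abi3_WT, against 6.96% ± 0.230 (SD, n = 5) for Abi3_KO. It was the only gene whose share of its class did not overlap between the groups, a feature noted after the values were seen and given no test. mt-Tt, its neighbour on the plus strand, made up 2.06% ± 0.203 (SD, n = 6) of these reads for Abi3_WT, against 2.49% ± 0.469 (SD, n = 5) for Abi3_KO.

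The direction of the tRNA genes as a class moved with the libraries. With reads outside genes as a covariate, which differed between the genotypes as given above, the median log2 fold change of the 15 tRNA genes was -0.13 and 7 of them were above 0, while that of the 8 mRNA genes was 0.11. Among the 7 above 0 in that fit were mt-Tt at 0.62 and mt-Tw at 1.45, both above their main values. Without Abi3_KO replicate 2 the tRNA median was 0.19 with 11 above 0, and with limma it was 0.34 with 15 above 0. How much of the tRNA difference belongs to the genotype and how much to this property of the libraries cannot be told apart in these animals.

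mt-Nd3, a complex I subunit, and mt-Tr, the arginine tRNA gene next to it, behaved unlike the other members. Reads counted for mt-Nd3 were 255, 348, 188, 183, 0 and 4 in Abi3_WT and 150, 351, 207, 5 and 4 in Abi3_KO. Those counted for Gm28438, the pseudogene at chr1:24651856-24652200 that holds its nuclear copy, were 3, 6, 3, 2, 310 and 360 in Abi3_WT and 3, 3, 0, 405 and 480 in Abi3_KO. In 7 animals mt-Nd3 held between 98.0% and 100% of the reads of the pair, and in the other 4 (Abi3_WT replicates 5 and 6, Abi3_KO replicates 4 and 5) it held at most 1.22%.

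The sequence pair at the start of mt-Nd3 shown above is the only difference from the copy that lies within mt-Nd3. The extra A in mt-Tr, the next gene, can also tell reads apart. Which of these places the counted reads crossed was not tested. A read across position 9461 matches the mitochondrial reference in full if it carries T and the chromosome 1 copy in full if it carries C. The reads themselves were not analysed here, so the base that the animals carried at this position, and whether it lay in mitochondrial or nuclear DNA, was not tested. The summed normalized count of the pair averaged 249.7 in Abi3_WT (SD 80.1, n = 6) and 356 in Abi3_KO (SD 158, n = 5), and animals with reads on the copy had sums of 225, 385, 463 and 551.

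For mt-Nd3 alone the log2 fold change was 0.07 (SE 1.38, 95% interval -2.64 to 2.77), with normalized counts from 0 to 291 within Abi3_WT and from 4.55 to 355 within Abi3_KO. mt-Tr had 45, 76, 76, 59, 0 and 0 reads in Abi3_WT and 48, 44, 16, 4 and 11 in Abi3_KO, a log2 fold change of -0.56 (SE 1.23, 95% interval -2.97 to 1.85). Its 4 lowest libraries were the 4 that were low for mt-Nd3. Both genotypes thus contained animals of either kind, 2 of 6 in Abi3_WT and 2 of 5 in Abi3_KO.

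**Figure D5:**
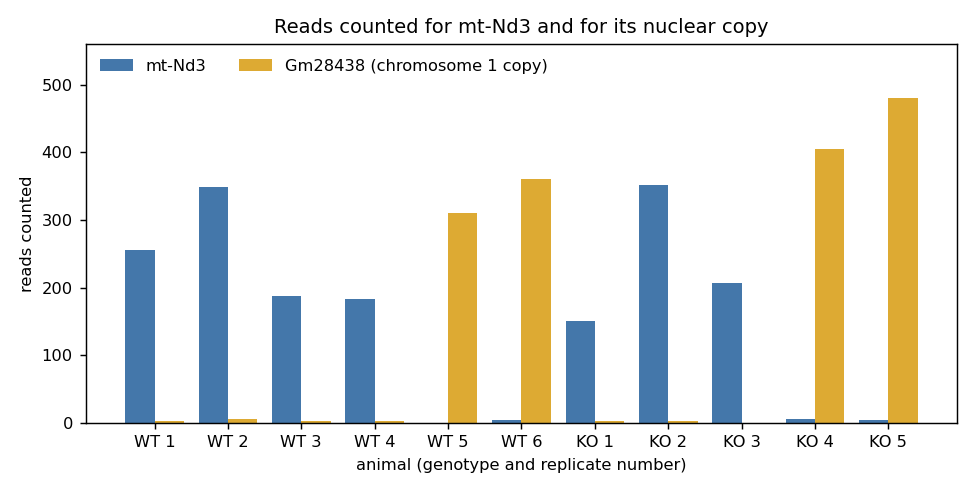
Reads counted (vertical axis) in each animal for mt-Nd3 and for Gm28438, its copy on chromosome 1. In 7 animals nearly all reads of the pair fall on mt-Nd3, and in Abi3_WT replicates 5 and 6 and Abi3_KO replicates 4 and 5 nearly all fall on the copy.

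Nuclear genes that serve the mitochondrial genome were examined as lists of known genes. They are to be read against the 0.539% of all tested genes that passed (0.34% with a higher level in Abi3_KO). An unadjusted p under 0.05 (DESeq2) was found for 8.58%. Only genes with an adjusted p could pass, 6487 of the 17626 tested, so a gene without one gives no negative result. Of 17 genes that replicate or transcribe mitochondrial DNA 17 were tested, but only 2 had an adjusted p, and 0 passed (DESeq2). The median log2 fold change was 0.08, and 1 gene had an unadjusted p under 0.05. That gene was Polg, the catalytic subunit of the mitochondrial DNA polymerase, whose normalized counts were 112, 85.0, 83.7, 123, 92.7 and 88.9 in Abi3_WT and 73.4, 47.5, 72.8, 75.7 and 50.1 in Abi3_KO. The groups did not overlap, as in 1.04% of all genes tested, the log2 fold change was -0.61 (SE 0.195, 95% interval -0.99 to -0.23) and adjusted p = 0.0925 by DESeq2. Of 24 genes that process or degrade mitochondrial RNA, 0 passed, 20 had log2 fold changes above 0 and the median was 0.13. Slirp, which stabilizes mitochondrial mRNAs, had the lowest p, with 109.8 ± 12.4 (SD, n = 6) for Abi3_WT against 148 ± 29.0 (SD, n = 5) for Abi3_KO, a log2 fold change of 0.43 (SE 0.157) and adjusted p = 0.167 by DESeq2.

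Among 24 nuclear subunits of the complexes that also contain mitochondrial subunits, 22 had an adjusted p. Of these 1 passed and was higher in Abi3_KO (0.34% of all genes tested), with a list median of 0.10. In this list 6 genes had an unadjusted p under 0.05 by DESeq2 (8.58% of all genes tested), and 18 had log2 fold changes above 0. The gene that passed was Uqcrc2, a core subunit of complex III, with normalized counts of 366, 402, 412, 434, 398 and 404 in Abi3_WT and 509.7, 507, 536, 442 and 584 in Abi3_KO. No Abi3_KO animal lay within the Abi3_WT range, and the log2 fold change was 0.35 (SE 0.0882, 95% interval 0.18 to 0.53), adjusted p = 0.0113 by DESeq2. Its partner in complex III, mt-Cytb, is the mitochondrial mRNA with the smallest difference. Uqcrfs1, with the next lowest p of the list, had a log2 fold change of 0.36 (SE 0.117). Its groups did not overlap, and adjusted p = 0.102 by DESeq2. Complex II, which is encoded wholly in the nucleus, had 0 of 4 genes past the threshold and a median of 0.11.

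Of 8 markers of mitochondrial mass 1 passed, Hspd1, the mitochondrial chaperonin, with 162 ± 10.6 (SD, n = 6) for Abi3_WT against 218 ± 9.31 (SD, n = 5) for Abi3_KO. Its log2 fold change was 0.43 (SE 0.112, 95% interval 0.21 to 0.65) and adjusted p = 0.0206 by DESeq2, and the median of the list was 0.12. Without each animal in turn, Uqcrc2 passed in 11 of 11 fits and Hspd1 in 6 of 11. With reads outside genes as a covariate neither passed, with log2 fold changes of 0.17 and 0.35, and edgeR gave adjusted p values of 0.151 and 0.198. Over all genes, only 3 passed with that covariate and 44 with edgeR, against 95 in the main fit. Of the 11 tested genes of the mitochondrial stress response 6 had an adjusted p and 0 passed. In this list, which did not hold Hspd1, 0 had an unadjusted p under 0.05 and the median was 0.04. Of 77 tested genes of mitochondrial ribosomal proteins 42 had an adjusted p and 0 passed. In this list 4 had an unadjusted p under 0.05 (8.58% of all genes tested), with a median of 0.01.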

How the data were processed

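The deposited files hold raw read counts per gene for each library. Per the labels and the study's methods, the authors trimmed adapters and homopolymers, aligned 76-base single-end reads to GRCm39 with STAR 2.7.3a and counted them by strand with HTSeq 0.9.1, without counting reads aligned to several places. Collapsing of PCR copies is not stated. Of 53700 gene IDs, 52610 matched the GENCODE annotation of the same build and 1090 did not, and rows that name no gene were left out of totals.

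The genotypes were compared in DESeq2 1.42.0 (R 4.3.3) by a Wald test in a design that held only genotype, which the study's methods state. Genes with at least 10 counts in total and a mean normalized count of at least 1.5 were kept, and the threshold was 0.05 after Benjamini-Hochberg adjustment. Independent filtering was on, so genes with a mean under 70.4 had no adjusted p. Fold changes are not shrunken. Alternatives used edgeR 4.0.16, limma 3.58.1, other scalings and filters, a covariate and the omission of each animal. Scripts were tested on simulated data. Windows of read length were searched in all nuclear chromosomes after BLASTN 2.17.0.

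The members and lists were chosen with earlier results of these data known. The text names all mitochondrial genes, and in the nuclear lists those past the threshold and some of those with the lowest p. No gene is named from the lists of complex II, the stress response and the mitochondrial ribosome. Replicates are separate animals by title, and p-values measure the spread between these samples.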

Additional observations from a re-analysis of the deposited data

Results flagged for a closer look

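In Abi3_KO replicate 2 several tRNA genes stood far above the other 4 Abi3_KO animals relative to the range of the group. The normalized counts in this library were 1272 for mt-Tq (913 in the next highest animal), 3619 for mt-Tm (2592), 1036 for mt-Tc (655), 750.5 for mt-Tl2 (440.5) and 1029 for mt-Tp (685), and the mitochondrial tRNA share of gene reads was 0.363% (0.253%). In all, 58 groups of values were examined and 6 held such a library, where chance gives about 1 in 20, or 2.9. The tRNA genes share a library, so these are not 6 separate observations. The library also had the fewest reads outside genes, 49.8 per 100 gene reads, and the part of that in the tRNA counts was not tested. Without this animal the median log2 fold change of the 15 tRNA genes was 0.19 in place of 0.30, and mt-Tt had no adjusted p at or below 0.05.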

How the results depend on the processing

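The number of mitochondrial genes past the threshold was 1 in DESeq2 with the study's design. It was 0 with edgeR, with limma, with TMM factors, with the nuclear total as size factor, with independent filtering off, with reads outside genes as a covariate and with libraries thinned to the smallest, and it stayed at 1 with size factors from nuclear genes, without a filter, with the stricter filter and with filtering aimed at 0.1. Over all genes, 95 passed in the main fit, 44 with edgeR, 27 with limma and 3 with the covariate. Leaving out 1 animal gave between 0 and 1 mitochondrial genes. Over these settings mt-Tt kept its direction, with log2 fold changes of 0.46 to 0.64 when 1 animal was left out. The difference in the share of gene reads stayed within 1 SD of the main value under every other denominator, and when 1 animal was left out it ran from -0.487 to 0.622 percentage points for all mitochondrial genes, from -0.0794 to 0.308 for the mRNA genes (highest without Abi3_KO replicate 1) and from -0.611 to 0.270 for the rRNA genes.

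Some genes changed sign, among them mt-Tf, mt-Ti and mt-Tr with main log2 fold changes of 0.39, 0.40 and -0.56, and the cause was not tested. With reads outside genes as a covariate the log2 fold changes were -0.67 for mt-Tf, -0.075 for mt-Rnr2, -0.13 for mt-Ti, -0.14 for mt-Tq, -0.50 for mt-Ta, -0.20 for mt-Tc, -0.20 for mt-Tl2, -0.30 for mt-Tp and -2.96 for mt-Nd3. With the nuclear total they were -0.012 for mt-Co1, -0.036 for mt-Cytb and -0.023 for mt-Tp. mt-Cytb was also at -0.0062 with edgeR and with TMM factors, -0.017 with limma, -0.00018 with the stricter filter and -0.00069 after thinning, and mt-Tr was at 0.94 with limma. With 1 animal left out, log2 fold changes ran from -0.059 to 0.022 for mt-Rnr1, -0.018 to 0.094 for mt-Rnr2, -0.030 to 0.15 for mt-Nd2, -0.085 to 0.32 for mt-Ta, -0.017 to 0.084 for mt-Co1, -0.50 to 0.38 for mt-Nd3, -0.015 to 0.36 for mt-Ts2, -0.049 to 0.073 for mt-Cytb and -0.14 to 0.080 for mt-Tp.

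The replicate numbers only name animals. The deviations of same-numbered animals from their group means correlated between -0.00485 and 0.0656, and 4 of the 10 animals with a shared number were closest to their own number. With the replicate block, which leaves out Abi3_WT replicate 6 from the contrast within numbers, 2 genes passed, mt-Tv and mt-Tl1, and log2 fold changes were -0.0029 for mt-Co1, -0.10 for mt-Nd3 and -0.011 for mt-Cytb. Depth limits the rarely counted genes: a count of 3 corresponds to 0.545 to 0.937 CPM in these libraries, and limits of this kind cover counting error only.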
